A study of Mus musculus with 6 samples.

Results

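The B cell and plasma cell programme was followed through 9 genes among the 55291 gene symbols of the count table, chosen by name. They were 5 B cell genes (Ms4a1, Cd79a, Cd79b, Pax5 and Blk) and 4 plasma cell factors (Mzb1, Pou2af1, Irf4 and Prdm1). Bulk RNA-seq compared subcutaneous tumours of the mouse glioma line CT2A, with 3 libraries for Siglece KO hosts and 3 for WT hosts. Siglece encodes Siglec-E, which binds sialic acids and restrains myeloid cells, and the tumour line was the same in both groups. The labels give neither strain, age nor sex, name no sort or gate, and do not tell how many animals stand behind each group, so p-values measure the spread between these libraries, which may be technical.

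B cells recognise antigen with a membrane antibody that signals through the CD79A and CD79B chains, and Pax5 holds their identity. When an activated B cell becomes an antibody-secreting plasma cell, Irf4 and Prdm1 (Blimp-1) rise, Pax5 is shut off, and genes for building and secreting antibody, such as Mzb1, are switched on. Several of these genes are also used elsewhere: Irf4 and Prdm1 in activated T cells and myeloid cells, Blk in mouse gamma delta T cells, Mzb1 in plasmacytoid dendritic cells, and Pax5 in the developing midbrain.

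Libraries held 24369359 to 40574093 counts. Siglece had 0, 8 and 0 counts in KO replicates 1, 2 and 3, against 74, 99 and 64 counts in WT replicates 1, 2 and 3. KO replicate 2 stood apart from the other KO libraries: on the first principal component, which held 72.7% of the variance, it lay at 17.7, whereas the other KO libraries (replicates 1 and 3) lay at -116 and -178.5 and those of WT from 84.7 to 97.1. Counts of calls are therefore also given without it. In bulk tumour RNA, fewer cells of a type and less RNA per cell cannot be told apart.

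Promoter windows from RefSeq (GRCm38.p6, 250 bases before to 50 after the start site) were found for 5 of the 9 genes. Those of Cd79a, a receptor partner, Pou2af1, the gene with the greatest fold change, and Pax5, whose level ran against the other B cell genes, are shown as examples of the patterns described below. Capitals mark the motif matches described after them. Cd79a is at chr7:24897247-24897546 on the plus strand, Pou2af1 at chr9:51213440-51213739 on the plus strand, and Pax5 at chr4:44710645-44710944 on the minus strand.
Cd79a: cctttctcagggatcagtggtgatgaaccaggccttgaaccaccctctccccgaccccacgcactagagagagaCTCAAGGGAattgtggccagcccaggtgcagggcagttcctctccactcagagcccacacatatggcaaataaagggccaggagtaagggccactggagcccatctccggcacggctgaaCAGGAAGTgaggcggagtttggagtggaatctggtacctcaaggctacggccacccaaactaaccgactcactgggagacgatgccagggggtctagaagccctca
Pou2af1: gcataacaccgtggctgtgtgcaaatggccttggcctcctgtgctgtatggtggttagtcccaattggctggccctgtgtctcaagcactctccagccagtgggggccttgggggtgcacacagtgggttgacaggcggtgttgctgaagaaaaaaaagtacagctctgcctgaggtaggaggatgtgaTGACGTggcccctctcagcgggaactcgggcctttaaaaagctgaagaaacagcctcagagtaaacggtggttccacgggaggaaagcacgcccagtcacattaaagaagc
Pax5: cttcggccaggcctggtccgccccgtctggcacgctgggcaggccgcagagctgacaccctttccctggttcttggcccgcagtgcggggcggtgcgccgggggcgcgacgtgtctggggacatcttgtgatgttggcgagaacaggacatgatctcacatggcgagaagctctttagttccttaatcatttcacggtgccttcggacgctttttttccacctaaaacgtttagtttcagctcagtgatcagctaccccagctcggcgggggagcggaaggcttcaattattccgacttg

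Both strands of the 5 windows, with those of Irf4 and Prdm1, were searched for 8 motifs. The octamer ATGCAAAT, to which Oct factors and the Pou2af1 product bind, was in 0 of the 5 windows and in 1.74% of 32817 mouse windows of the same length. The letters of the other 7 motifs were set after the windows had been read. The core of the B cell factor EBF1, CCCNNGGG, the ETS-IRF composite GGAANNGAA and the IRF motif GAAANNGAA matched none of the 5, and were in 13.7%, 8.25% and 8.55% of all windows. Cd79a held a variant EBF1 motif, CTCNNGGGA, at -176 to -168 from the start site, and the ETS motif CAGGAAGT at -56 to -49, which were in 7.33% and 3.33% of all windows. Pou2af1 held the CRE core TGACGT at -61 to -56 (7.51% of all windows) and Irf4 the TATA box TATAAA at -26 to -21 (13.6%), while Pax5 and Prdm1 held none of the 8. Matches did not overlap one another. The RefSeq start of Cd79a lay 116 bases downstream of the deposited gene start, so part of the window is inside the deposited gene. That of Prdm1 lay 69753 bases downstream, so its whole window is.

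Of the 9 genes, 6 rose in KO tumours: all 4 plasma cell factors, and Cd79b and Blk among the 5 B cell genes (edgeR quasi-likelihood test, Benjamini-Hochberg adjusted p under 0.05 over 18621 genes). None was called lower. Across all tested genes 11.2% were called higher and 0.226% lower. Fold changes ran from 3.29 for Prdm1 to 44.1 for Pou2af1. Ms4a1, Cd79a and Pax5 did not pass. All 9 genes passed the filter on low counts (about 10 counts in at least 3 libraries). Ms4a1, Blk and Pou2af1 did so only because all 3 KO libraries were above it. A difference in these 3 was thus in part a condition of being tested. Mzb1 had 2 WT libraries above the filter and also needed KO to pass. The ranges of the groups did not overlap for 7 of the 9 genes (44.1% of all tested genes).

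These calls rested on the full set of libraries. With KO replicate 1 or any single WT library left out, edgeR called 0 of the 9 genes, as it called 0 of all genes. In each of these fits 7 or 8 of the 9 had an unadjusted p under 0.05. Over all tested genes 3461 of 19380 had such a p without KO replicate 1. Without WT replicates 1, 2 and 3 they were 4931 of 19694, 4282 of 19483 and 4246 of 19503. Without KO replicate 3 edgeR called 4 of the 9, Blk and the plasma cell factors other than Mzb1 (adjusted p = 0.0524). Without KO replicate 2 it called 8, all but Ms4a1, with Pax5 lower. The share of all tested genes that was called also moved with the setting. Without KO replicate 2 it was 41.2% (22.7% higher and 18.5% lower in KO), and without KO replicate 3 it was 4.88% (4.85% and 0.0309%). With limma-voom 5.47% were called (5.31% higher, 0.166% lower), 55.2% where quality weights were added (29.7% and 25.5%), with DESeq2 24.2% (17.5% and 6.68%) and with no low-count filter 10.2% (8.71% and 1.44%), against 11.4% with edgeR on all libraries. The counts of the gene lists given further on also fell to 0 in each of the 4 edgeR fits with 0 calls.

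**Figure D1:**
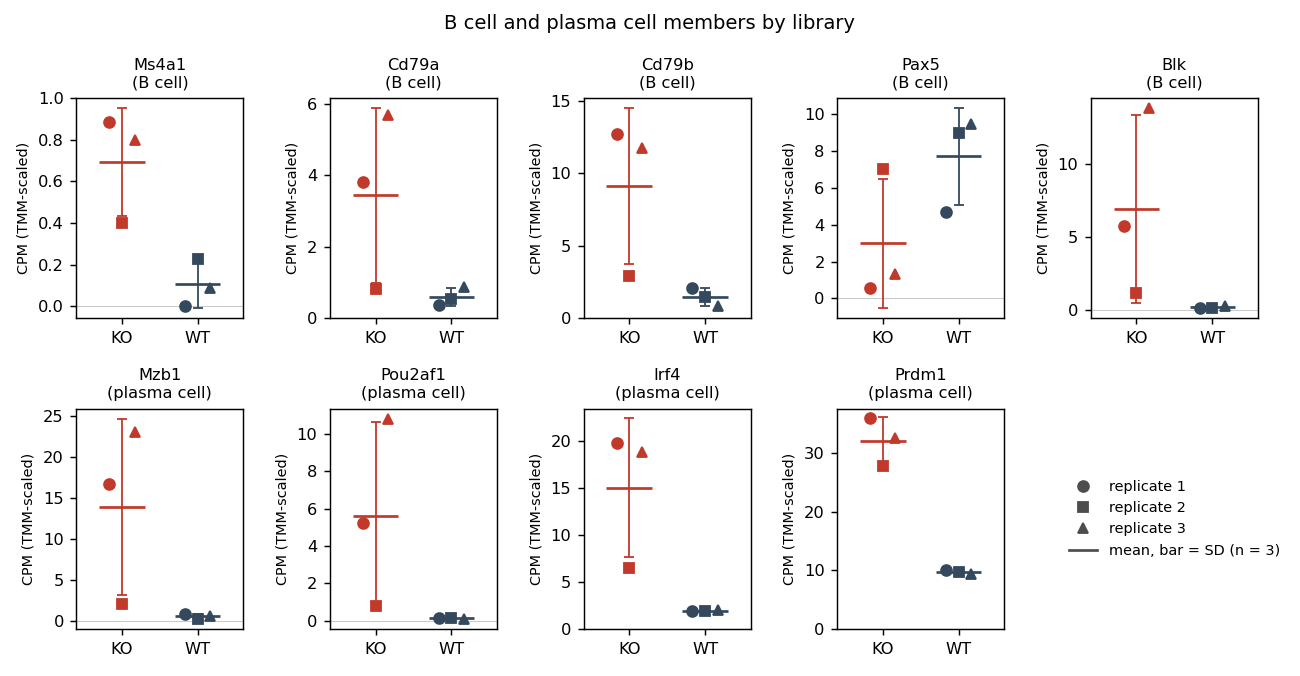
Level of each of the 9 genes in CPM (counts scaled to the TMM-scaled library size) on a linear axis, 1 point per library with KO left and WT right, lines at the mean and bars for the SD (n = 3). KO replicate 2 is the lowest KO point in 8 of the 9 panels and the highest in the Pax5 panel, where the WT points lie between 4.70 and 9.46 CPM.

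Of the 2 receptor partners Cd79b passed the test and Cd79a did not. Cd79b (ENSMUSG00000040592.11, minus strand of chromosome 11 at 106311341 to 106314762, mm10) had 374, 103 and 235 counts in KO replicates 1, 2 and 3, against 76, 51 and 29 counts in WT replicates 1, 2 and 3. The 2 groups did not overlap, and KO replicate 2 lay nearest to WT. It averaged 9.12 ± 5.38 CPM in KO tumours and 1.46 ± 0.607 CPM in WT (SD, n = 3 each), a log2 fold change of 2.63 (SE 0.65, adjusted p = 0.0409, edgeR). It missed the threshold with limma-voom (adjusted p = 0.0758).

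Cd79a (ENSMUSG00000003379.7, chromosome 7, 24897381 to 24902197, plus strand) pairs with Cd79b in the receptor. It had 112, 29 and 114 counts in the KO libraries, in the same order, against 14, 19 and 29 counts in the WT libraries. KO replicates 1 and 3 were above all WT libraries, while KO replicate 2, at 0.826 CPM, was below WT replicate 3, at 0.863 CPM. The log2 fold change was 2.52 (SE 0.78) and did not pass (adjusted p = 0.0755, edgeR), although it did with DESeq2 (0.0116), with no low-count filter (0.0399) and without KO replicate 2 (0.00607). Per length, the ratio of Cd79b to Cd79a, in TPM (transcripts scaled for length and library), was 3.40, 3.62 and 2.10 in the KO libraries and 5.53, 2.73 and 1.02 in the WT libraries, which overlap.

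Ms4a1, which encodes the B cell surface protein CD20 (ENSMUSG00000024673.9, chromosome 19, 11249675 to 11266241, minus strand), was close to the limit of detection. It had 26, 14 and 16 counts in KO, against 0, 8 and 3 counts in WT, where a count of 0 in WT replicate 1 allows up to 0.0820 CPM. The groups did not overlap, at 0.694 ± 0.259 CPM in KO tumours and 0.106 ± 0.115 CPM in WT. Its log2 fold change of 2.67 (SE 1.07) did not pass (adjusted p = 0.135, edgeR). With Ms4a1 this low, the depth limits what can be said of mature B cells in WT tumours.

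Blk, a Src-family kinase that acts below the B cell receptor (ENSMUSG00000014453.4, chromosome 14, 63372836 to 63417037, minus strand), rose. There were 170, 40 and 278 counts of it in the KO libraries and 5, 6 and 9 in the WT libraries, and every KO library was above every WT library. The level of 6.93 ± 6.44 CPM in KO, against 0.192 ± 0.0680 CPM in WT, gave a log2 fold change of 5.15 (SE 0.97, adjusted p = 0.0246, edgeR). With limma-voom the adjusted p was 0.0809. Blk was the only B cell gene of the 5 that was called in the fit without KO replicate 3 (adjusted p = 0.0455).

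Pax5 ran the other way. The gene (ENSMUSG00000014030.15, chromosome 4, 44524757 to 44710487, minus strand) had 17, 246 and 27 counts in KO replicates 1, 2 and 3, against 172, 315 and 318 counts in WT replicates 1, 2 and 3. KO replicates 1 and 3 were below every WT library, and KO replicate 2 lay within the WT range, at 7.01 CPM. At 2.98 ± 3.51 CPM in KO tumours and 7.71 ± 2.62 CPM in WT, the log2 fold change was -1.36 (SE 0.85) and did not pass (adjusted p = 0.286, edgeR). Without KO replicate 2 it was -3.04 and passed (adjusted p = 0.00731), and it passed with limma-voom and quality weights (-3.37, adjusted p = 0.00121). Calls of lower genes were common in both fits, at 18.5% and 25.5% of all tested genes. In 3 WT libraries with 8 counts or fewer of Ms4a1, Pax5 thus had 172 counts or more. The genes 5730488B01Rik and Gm12462, on the opposite strand, share 636 and 125 exon bases with Pax5 and had 0 counts in all 6 libraries. Which exons of Pax5 the reads came from cannot be read from whole-gene counts.

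Among the plasma cell factors, Prdm1 was the most even. Prdm1 encodes Blimp-1, the repressor that drives plasma cell differentiation (ENSMUSG00000038151.13, chromosome 10, 44437177 to 44528501, minus strand). It had 1059, 977 and 653 counts in KO, against 371, 342 and 315 counts in WT. Even KO replicate 2, at 27.8 CPM, was far above the WT libraries at 9.37 to 10.1 CPM. The means of 32.1 ± 4.11 CPM in KO tumours and 9.75 ± 0.382 CPM in WT gave a log2 fold change of 1.72 (SE 0.26, adjusted p = 0.0246, edgeR).

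Irf4, the transcription factor that acts with Prdm1 in plasma cells (ENSMUSG00000021356.10, chromosome 13, 30749226 to 30766976, plus strand), had 580, 228 and 376 counts in KO and 71, 65 and 67 counts in WT. The WT libraries were close to each other, and all KO libraries were above them. It averaged 15.0 ± 7.37 CPM in KO tumours and 1.93 ± 0.0717 CPM in WT, a log2 fold change of 2.95 (SE 0.50, adjusted p = 0.0246, edgeR). Irf4 and Prdm1 were the 2 genes of the 9 that also passed with limma-voom (adjusted p = 0.0435 and 0.0398).

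Pou2af1, the OBF-1 coactivator of B cells and plasma cells (ENSMUSG00000032053.8, chromosome 9, 51213708 to 51240080, plus strand), had 154, 27 and 217 counts in KO, against 5, 5 and 3 counts in WT. KO replicate 2 was again the lowest KO library, at 0.769 CPM, still above the 0.0893 to 0.142 CPM of WT. A level of 5.61 ± 5.03 CPM in KO tumours and 0.123 ± 0.0292 CPM in WT gave a log2 fold change of 5.46 (SE 1.02, adjusted p = 0.0246, edgeR). It missed the threshold with limma-voom (adjusted p = 0.0907).

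Mzb1 encodes a protein of the endoplasmic reticulum that helps antibody assembly and secretion (ENSMUSG00000024353.5, chromosome 18, 35647267 to 35649367, minus strand). Counts were 490, 74 and 461 in KO and 30, 10 and 23 in WT, and the groups did not overlap. It averaged 13.9 ± 10.7 CPM in KO tumours and 0.596 ± 0.278 CPM in WT, a log2 fold change of 4.53 (SE 0.91, adjusted p = 0.0264, edgeR). Its adjusted p was 0.0823 with limma-voom. Of its 1215 merged exon bases, 695 are shared on the same strand with the predicted gene Gm50318, which had 431, 106 and 433 counts in KO and 104, 63 and 72 in WT. How reads in the shared bases were assigned is not given in the sources used here, so the level of Mzb1 is uncertain.

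**Figure D2:**
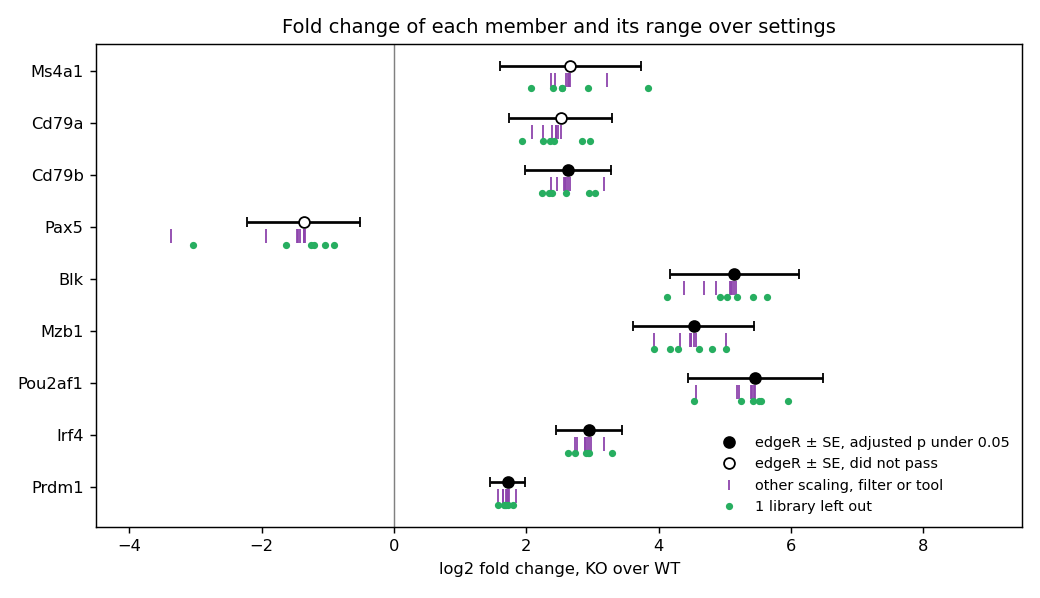
Log2 fold change of KO over WT for each of the 9 genes, with the edgeR value and its SE (filled where the adjusted p was under 0.05), other scalings, filters or tools as ticks, and fits without 1 library as dots. Pax5 lies below 0 and the other 8 genes above 0 in every fit that tested them.

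The balance of the 2 arms was taken per length in TPM, since it compares levels of different genes, as the mean log2(TPM + 1) of the 5 B cell genes minus that of the 4 plasma cell factors. It was -1.72, -0.99 and -1.53 in KO replicates 1, 2 and 3, against -0.36, -0.08 and -0.25 in WT replicates 1, 2 and 3. Every KO library thus lay further towards the plasma cell factors than every WT library. The mean balance was -1.42 ± 0.38 in KO and -0.23 ± 0.14 in WT (SD, n = 3), a difference of -1.18 on the log2 scale. It is described without a p, because the genes were chosen with results known.

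Both arms were higher in KO, and the plasma cell arm more so. The 5 B cell genes summed to 38.5, 12.6 and 34.9 TPM in KO and 4.67, 8.59 and 8.23 TPM in WT. The 4 plasma cell factors summed to 72.9, 26.9 and 65.4 TPM in KO and 5.98, 8.30 and 9.29 TPM in WT. B cell genes thus held 34.5%, 31.8% and 34.8% of the TPM of the 9 genes in KO and 43.8%, 50.9% and 47.0% in WT.

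Part of this difference was Pax5. Pax5 held 0.471%, 20.3% and 0.869% of the B cell TPM in KO, against 23.1%, 40.5% and 45.0% in WT. Without it, an alternative chosen after the values were seen, the balance was -1.22, -1.06 and -1.05 in KO and -0.43, -0.33 and -0.51 in WT, and the difference was -0.69. The share of TPM in B cell genes was then 34.4%, 27.1% and 34.6% in KO and 37.5%, 38.1% and 32.8% in WT, which overlap. On the log2 scale every KO library stayed below every WT library. Ms4a1, however, was at 0.208 to 0.397 TPM in KO and 0 to 0.127 TPM in WT. These levels are below the 1 added before the log, so Ms4a1 stayed low on that scale in both groups and held the B cell mean down. How far the log2 separation rests on Ms4a1 was not tested. On summed TPM the groups no longer separated.

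The makeup of the plasma cell arm also differed. Mzb1 held 52.3%, 20.8% and 57.6% of its TPM in KO, against 22.9%, 9.71% and 21.0% in WT, while Prdm1 held 24.6%, 59.7% and 17.8% in KO and 61.8%, 72.3% and 62.6% in WT. KO replicate 2 thus resembled WT in the makeup of the arm while its summed level was above WT. The ratio of Mzb1 to Cd79a was 5.25, 3.06 and 4.85 in KO and 2.57, 0.631 and 0.951 in WT, without overlap. That of Mzb1 to Cd79b was 1.54, 0.846 and 2.31 in KO and 0.465, 0.231 and 0.934 in WT, where KO replicate 2 fell within the WT range. These shares and ratios, the summed TPM of the arm and the balance all rest on the level of Mzb1. That level is uncertain because of the exon bases shared with Gm50318.

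**Figure D3:**
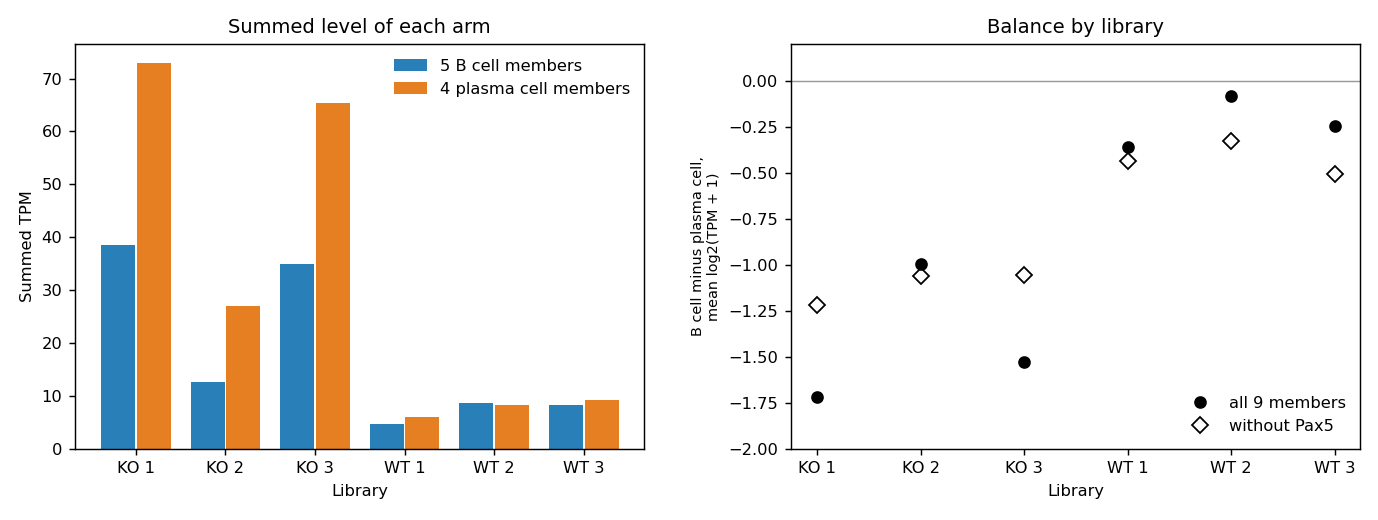
Left, summed TPM of the 5 B cell genes and of the 4 plasma cell factors in each library, on an axis from 0. Right, the balance (B cell minus plasma cell mean log2(TPM + 1)) with all 9 genes and without Pax5. With all 9 genes KO libraries lie between -1.72 and -0.99 and WT libraries between -0.36 and -0.08.

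Most other genes of B cells that could be tested were higher in KO. Of 20 other B cell genes, 14 were tested and 9 rose, with a median log2 fold change of 2.62, against -0.05 over all tested genes. They included Cd22, an inhibitory receptor (48.0 ± 29.7 CPM in KO, 4.78 ± 0.865 CPM in WT), Cd37, a tetraspanin (113 ± 74.3 and 10.3 ± 1.90 CPM), Blnk, the adaptor below the receptor (log2 fold change 3.64, SE 0.73), and Ebf1, a factor of early B cells that fat and stromal cells also express (2.96, SE 0.50). Fcrl1, also among the 9 that rose, passed the low-count filter only through KO, so its difference was in part a condition of being tested. None of the list was called lower with edgeR on all libraries. Of the 5 tested genes that did not pass, 4 had negative log2 fold changes: Cr2, Ralgps2 and Bank1, named here after their values were seen, and Tnfrsf13c. Cr2, the complement receptor CD21, had 24, 149 and 15 counts in KO, against 292, 279 and 301 in WT, without overlap (log2 fold change -2.08, SE 0.71, adjusted p = 0.0967, edgeR). Ralgps2 (-1.06, SE 0.38) did not overlap between groups either, while Bank1 (-0.62, SE 0.55) did. The counts moved with the setting: 2 were called higher with limma-voom and 5 without KO replicate 3, while 11 were called higher and 3 lower without KO replicate 2. Fcer2a, Fcmr, Vpreb3, Ighd and Cxcr5 were among those below the filter.

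Of 6 tested germinal centre genes 1 rose, Bcl6, the germinal centre factor that other cells use as well (32.0 ± 7.69 CPM in KO, 13.5 ± 2.11 CPM in WT), and the median log2 fold change was -0.40. Without composition scaling or under RLE scaling 0 of these genes were called. Mef2b (-1.40, SE 0.63, adjusted p = 0.168), Gcsam (1.86, SE 0.68, adjusted p = 0.114) and Ung (-0.90, SE 0.40, adjusted p = 0.164) did not pass with edgeR, and Rgs13 was below the filter. Without KO replicate 2 edgeR called 1 gene of the list higher and 2 lower, Mef2b (-1.95, adjusted p = 0.0491) and Ung (-1.43, adjusted p = 0.00966). Of 6 precursor B cell genes only Dntt was tested, and it did not pass (log2 fold change 3.02, SE 1.08, adjusted p = 0.108, edgeR). Rag1, Rag2, Vpreb1, Vpreb2 and Igll1 were below the filter.

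Of 15 tested plasma cell genes outside the 9, 4 rose, with a median log2 fold change of 0.94. Jchain, which joins polymeric antibodies, averaged 138 ± 102 CPM in KO tumours and 4.19 ± 2.74 CPM in WT, the greatest change on this list (log2 fold change 5.04, SE 0.99). Tnfrsf13b, the TACI receptor (2.41, SE 0.45), Slamf7 (2.26, SE 0.38) and Tent5c (2.02, SE 0.38) were the other 3, and Slamf7 is also carried by cytotoxic and myeloid cells. The other 11 did not pass, and Tnfrsf17, the BCMA receptor, was below the filter. Of these 11, Creld2 (-1.04, SE 0.38), Fkbp11 (-0.97, SE 0.39), Sec11c (-0.48, SE 0.35) and Edem1 (-0.07, SE 0.26) had negative log2 fold changes. They are named here after their values were seen. Creld2 and Fkbp11 did not overlap between groups, and the rest of the 11 had positive log2 fold changes. In the fit without KO replicate 2, 9 genes of the list were called higher and 1 lower.

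Survival signals and receptor signalling were examined next. Of 4 tested BAFF and APRIL genes 2 rose, Tnfsf13, which encodes APRIL (29.0 ± 15.4 CPM in KO, 6.58 ± 0.666 CPM in WT), and Tnfrsf13b, and their median log2 fold change was 1.31. Tnfsf13b, which encodes BAFF (0.48, SE 0.56, adjusted p = 0.563), and Tnfrsf13c, the BAFF receptor (-1.57, SE 0.60, adjusted p = 0.124), did not pass with edgeR. Tnfrsf13c had 51, 197 and 28 counts in KO and 427, 259 and 239 in WT, and without KO replicate 2 it was called lower (-2.49, adjusted p = 0.00501, edgeR). Of 14 genes of B cell receptor signalling 12 rose, with a median log2 fold change of 2.26, among them Syk (2.89, SE 0.53), Inpp5d (2.49, SE 0.43), Vav1 (2.42, SE 0.42) and Plcg2 (2.12, SE 0.39). Macrophages and other myeloid cells express these 4 genes as well. Without KO replicate 3, 8 of the 14 were called, and without KO replicate 2, 13.

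**Figure D4:**
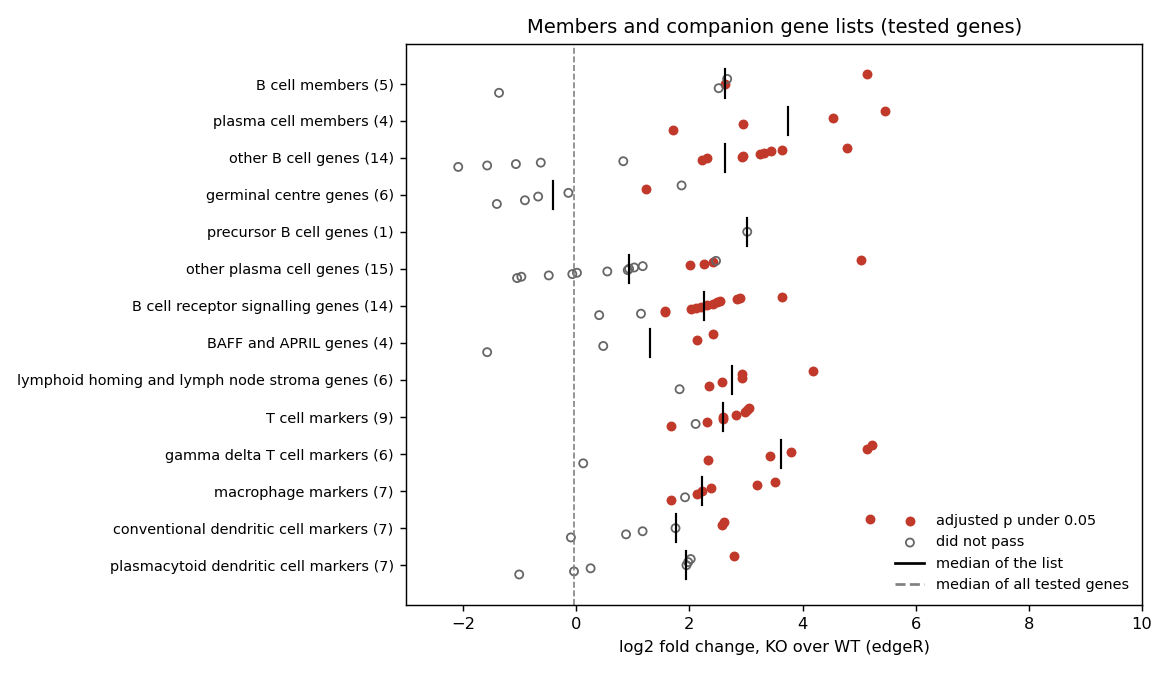
Log2 fold change of KO over WT (edgeR) for the tested genes of each list, filled where the adjusted p was under 0.05, with the number tested in brackets, a bar at each list's median and a dashed line at the median of all tested genes (-0.05). The 4 plasma cell factors are all filled, and the other B cell genes run from -2.08 to 4.79.

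Of 13 lymphoid homing and lymph node stroma genes, 7 were at 0 or below the filter. Of the 6 tested ones 5 rose (median log2 fold change 2.75), including Cxcl12, a chemokine that holds plasma cells in their niche (239 ± 157 CPM in KO, 13.1 ± 5.02 CPM in WT), its receptor Cxcr4 (2.92, SE 0.53) and Ltb (2.94, SE 0.65). Chst4 had 0 counts in all 6 libraries. Cxcl13, Cxcr5, Ccl19, Ccl21a, Madcam1 and Glycam1 were below the filter. Without KO replicate 2 all 6 tested genes were called higher.

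Markers of other cells that use these genes moved with genotype too, and their part in the changes of Irf4, Prdm1, Blk and Mzb1 was not tested. Of 9 T cell markers 8 rose (Cd3e 2.99, SE 0.45; Cd4 3.02, SE 0.50; Cd8a 2.31, SE 0.42; Cd28 3.05, SE 0.61), and their summed level was 198 to 628 CPM in KO and 68.6 to 115 CPM in WT. Of 7 macrophage markers 6 rose (Csf1r, Cd68, Mrc1 and Adgre1 by log2 fold changes of 2.39, 3.19, 3.51 and 2.22), at 1945 to 6413 CPM in KO and 799.6 to 1385 CPM in WT. None of the markers of these 2 lists was at 0 in any library. Without KO replicate 2 all 9 and all 7 were called higher, and with limma-voom 5 and 4. T cell markers in KO replicates 1, 2 and 3 summed to 628, 198 and 556 CPM, so KO replicate 2 was the lowest there as it was for the 8 genes.

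Of 6 tested gamma delta T cell markers, a list that holds Blk itself, 5 rose. Among them were Cd163l1 (43.7 ± 35.8 CPM in KO, 1.16 ± 0.885 CPM in WT), Trdc (log2 fold change 3.43, SE 0.76) and Sox13 (2.33, SE 0.54). The list summed to 32.2 to 185 CPM in KO and 11.3 to 17.2 CPM in WT, with Il17a and Il23r below the filter. Of 7 markers of plasmacytoid dendritic cells, which express Mzb1, 1 rose, Siglech (2.79, SE 0.61). Ccr9 (1.98, SE 0.54, adjusted p = 0.0548), Klk1 (2.02, SE 0.72, adjusted p = 0.107) and Cox6a2 (1.95, SE 0.69, adjusted p = 0.106) did not pass with edgeR. The median log2 fold change of the list was 1.95. Its sum, 648 to 1028 CPM in KO and 1057 to 2198 CPM in WT, was carried by Bst2, which was singled out after its values were seen and had 626, 852 and 395 CPM in KO replicates 1, 2 and 3 against 2042, 871 and 849 CPM in WT replicates 1, 2 and 3. Of 7 conventional dendritic cell markers 3 rose, Flt3 (2.62, SE 0.54), Cd209a (5.19, SE 1.10) and Ccr7 (2.58, SE 0.69), while Zbtb46 did not (1.17, SE 0.36, adjusted p = 0.0729, edgeR). The median log2 fold change of the list was 1.76. Cd209a (5, 6 and 2 counts in WT) passed the low-count filter only through KO, as Fcrl1 and Dntt did on their lists. Derl3, Gcsam and Klk1 had 2 WT libraries above the filter and also needed KO to pass. The sum of 227 to 370 CPM in KO and 245 to 322 CPM in WT was carried by Fscn1, also singled out after its values were seen, with 218, 203 and 303 CPM in the KO libraries, against 303, 234 and 234 CPM in the WT libraries. Without KO replicate 2 edgeR called 6 gamma delta T cell, 3 plasmacytoid and 5 conventional dendritic cell markers higher and 0 lower.

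The genes whose profiles lay nearest to 3 of the 9 were taken by the root mean square difference of centred log2 CPM over the 6 libraries, as a description. The 9 genes themselves were left out of this search, so they could not appear in it. Nearest to Ms4a1, which had only 0 to 26 counts per library, were Gm38244, Ttll7, Radx, Anxa11 and Naalad2, at differences of 0.20 to 0.25. The 5 genes nearest to Mzb1 were Mdk, a growth factor, Engase, Hpgd, a prostaglandin-degrading enzyme, Gpx3, a secreted peroxidase, and Lum, a matrix proteoglycan, at 0.27 to 0.35. For Pax5, added after its values were seen, they were Olfr545, C230038L03Rik, Tenm4, a teneurin of neural tissue, Lpar4 and Ugt8a, which makes a myelin lipid, at 0.17 to 0.23. Of these 15 genes 0 stood on any of the lists of other B cell, other plasma cell or other immune genes. Tenm4 had 209, 2294 and 326 counts in KO, against 2473, 3477 and 3238 in WT, and unlike Pax5 its groups did not overlap. Mdk had 2405, 589 and 2276 counts in KO and 203, 72 and 113 in WT.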

How the data were processed

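The 6 libraries came as 1 deposited table of raw counts for 55291 gene symbols, laid out as by featureCounts with the merged length of each gene's exons, per the file headers. Libraries were made with Smart-seq2, per the labels' protocols, which does not mark strand. The build was mm10, per the submitters' processing notes, which also name DESeq2. Aligner, annotation and multi-mapping rules are not given in the sources used. Columns matched the sample descriptions, and 0 columns were left out. Replicate numbers follow accession order and pair nothing.

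KO was compared with WT with edgeR 4.0.16 in R 4.3.3 (two-sided quasi-likelihood F test with group alone in the model, TMM, filterByExpr with a minimum count of 10, Benjamini-Hochberg over 18621 genes, threshold 0.05). The SE was taken as the size of the log2 fold change over the root of F. CPM used TMM-scaled library sizes, and TPM used the merged exon lengths. A count of 0 was read as up to 3 counts, which is 0.0820 to 0.150 CPM by library. This limit covers counting error only. Alternatives were RLE or no scaling, no or a stricter filter (CPM of 1 in 3 libraries), DESeq2 1.42.0, limma-voom (3.58.1) with and without quality weights, robust fitting, and leaving out each library. Motifs were searched in RefSeq promoter windows, and gene identifiers are from GENCODE M21.

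The 9 genes and all lists were chosen with earlier results of these data known. Named genes are the 9, up to 4 genes of each list with the smallest p, list genes below the filter by name, and the 5 genes nearest in profile to Ms4a1 and to Mzb1. Of 2 listed names the table held another symbol of the same RefSeq gene (Trgc1, Cd163l1). Some genes of the lists are not reported here.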

Additional observations from a re-analysis of the deposited data

How the results depend on the processing

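No paired analysis was possible because the labels give no replicate numbers. Of the 9 genes 6 were called, 5 to 9 under the alternatives with all libraries except limma-voom (2), and 0 to 8 with 1 library left out. Over all genes the count was 2125, against 3356 with no low-count filter, 4510 with DESeq2, 1019 with limma-voom (10280 where quality weights were added), and 0 to 8078 with 1 library left out. At an unadjusted p under 0.05 the 4 edgeR fits with 0 calls gave 3461, 4931, 4282 and 4246 genes (without KO replicate 1, then WT replicates 1, 2 and 3). No other tool was run without a library. The KO minus WT balance of -1.18 kept its sign in each alternative: -1.47 and -0.70 with pseudocounts of 0.1 and 5, -1.69 without Irf4 and Prdm1, -0.82 as a ratio of summed TPM, -0.69 without Pax5 (chosen after seeing the data), and -1.40 to -1.03 with 1 library left out. The causes were not tested. Without Irf4 and Prdm1 the plasma cell arm was Mzb1 and Pou2af1 alone. Of these, Pou2af1 passed the low-count filter only through KO, and Mzb1, with 2 WT libraries above it, also needed KO. No alternative of the balance left out Mzb1, or Ms4a1, which lay below the pseudocount of 1 TPM in every library. Among named genes, Tnfsf13b alone changed sign, with -0.070 to 0.96 over the fits with 1 library left out, lowest without KO replicate 1. The median log2 fold change of all genes was -0.18 without composition scaling, against -0.05. The stricter filter removed Ms4a1, Cd79a and Pou2af1. List counts under these settings were added after seeing the data. Ms4a1, at 0 to 8 counts in WT, is limited by depth.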
